A study of Mus musculus with 6 samples.

Results

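The MYC network is a set of 8 genes here, Myc, Max, Mxd1, Mxi1, Mxd3, Mxd4, Mnt and Mlx, out of 24091 gene symbols in the deposited count table. They were matched by symbol, and all 8 passed the filter on low counts, which kept 12469 genes. The set was chosen by its known biochemistry but with values in hand, since a lower CPM (read counts relative to library size, which was scaled by the TMM method) of Myc in the leukaemic group had already been seen. The AML and healthy levels of the 8 genes are therefore a description and no test is drawn from them.

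MYC is a transcription factor that drives growth, metabolism and cell division, and it binds DNA only as a pair with its partner MAX. The MXD proteins (encoded by Mxd1, Mxi1, Mxd3 and Mxd4) and MNT compete for the same partner and, by recruiting the SIN3 corepressor, turn down genes that carry the same DNA motif, the E-box CACGTG. MLX is a second partner, which joins some of these repressors and the glucose-sensing factors MondoA (Mlxip) and ChREBP (Mlxipl) to the network. In lymphocytes MYC is induced by antigen or cytokine stimulation, and MXD genes are known from studies of many cell types as genes of resting and differentiating cells.

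Group 1 innate lymphoid cells (ILC1), interferon-producing lymphocytes that reside in tissue, were taken from the liver of C57BL/6 mice and their poly(A) RNA was sequenced. The AML group (3 libraries, AML 1 to 3) came from mice given C1498 cells, an acute myeloid leukaemia line of the same strain, by the intravenous route, with isolation at day 14. The healthy group (3 libraries, healthy 1 to 3) came from mice that received none. The labels state neither the sex nor the age of the animals, nor the sorting gate, nor whether a library is from 1 animal or a pool, so each p-value rests on a library-to-library spread that could be technical. No other allele or agent is named in either group.

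Libraries held 45135093 to 51284691 counts. Of the 10 ILC1 markers listed, 9 are in the table and all 9 were tested, and they summed to 5838 to 6581 CPM in AML and 6175 to 6382 CPM in healthy libraries, whereas the 9 conventional NK cell markers summed to 157 to 219 and 157 to 196 CPM. The library AML 1 stood apart from the other AML libraries. The chi-square per degree of freedom over counts was 87.7 and 104 for the pairs that hold AML 1, against 28.3 for AML 2 with AML 3, and 39.0 to 63.0 among healthy pairs. The 13 monocyte and macrophage markers, led by Lyz2, summed to 670 to 729 CPM in AML, with 590, 73.6 and 66.7 CPM for healthy 1, 2 and 3. For 4 of the 13, Adgre1, C1qa, C1qb and C1qc, every AML library was higher than every healthy one, and the rest overlapped. C1qb measured 11.6 to 38.8 CPM in AML and 2.41 to 4.22 CPM in healthy libraries. Of the 8 T cell markers, which summed to 1099 to 1383 CPM in AML and 1439 to 1745 CPM in healthy libraries, Cd3g made up most, at 950.3 to 1292 CPM in AML and 1316 to 1646 CPM in healthy libraries. The other 7 overlapped between the groups, and 3 of the 8 had a positive log2 difference. The 10 dendritic cell markers summed to 1094 to 1257 CPM in AML and 861 to 890 CPM in healthy libraries, without overlap. Itgax made up most of that sum, at 671.9 to 765.0 CPM in AML and 693.4 to 769.1 CPM in healthy libraries, and overlapped. Every AML library was higher for 5 of the 10, Cd74, H2-Aa, H2-Ab1, Siglech and Batf3, and the rest overlapped. The 6 haematopoietic progenitor markers summed to 17.7 to 29.95 CPM in AML and 7.46 to 25.3 CPM in healthy libraries. The 7 neutrophil markers summed to 77.7 CPM in AML 1 and to 0.503 to 7.46 CPM in the other 5 libraries, with Ly6g at 0 in all. In such bulk RNA a change in the number of cells of a type and a change in RNA per cell cannot be told apart.

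The motif that the network binds lies in the promoters of 4 of its own genes, which is why these stretches are shown. RefSeq promoters (build GRCm38.p6, 250 bases before to 50 after each start) were matched for 7 of the 8 genes, all but Myc, and 4 of the 7 held CACGTG, a motif that reads the same on both strands. It was present for 8.09% of 27025 genes with a promoter of this length and for 11.7% of the 9687 such genes among those tested, and 4 of 7 is 57.1% with a Wilson interval of 25.0% to 84.2% at 95% confidence. Counting CACGCG on either strand as well, it was still 4 of 7, beside 17.2% of all genes with such a promoter and 28.9% of those tested. A gene was counted if any of its promoters held the motif. Of 54 activated MYC target genes with a matched promoter, from the lists described further on, 14 held CACGTG, or 25.9%. Each line gives 30 bases, 5′ to 3′ on the gene's strand, with the E-box in capitals.
Max: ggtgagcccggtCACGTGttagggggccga
Mlx: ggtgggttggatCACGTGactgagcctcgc
Mnt: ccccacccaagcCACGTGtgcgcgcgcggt
Mxd4: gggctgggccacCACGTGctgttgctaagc

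The stretches lie at chr12:76962234-76962263 on the minus strand for Max, chr11:101087238-101087267 on the plus strand for Mlx, chr11:74830789-74830818 on the plus strand for Mnt and chr5:34187912-34187941 on the minus strand for Mxd4. The first base of the E-box sits 3 bases before the start in Max, 40 in Mlx, 123 in Mnt and 219 in Mxd4. No CACGTG was found in the windows of Mxd1, Mxd3 or Mxi1, which says only that these letters are not in those windows. Among genes that MYC is known to activate, the windows of Odc1, Ncl and Pa2g4 held 0 copies of CACGTG, which again concerns those windows only. That of Odc1 held 2 copies of CACGCG. The window of another such gene, the cyclin-dependent kinase gene Cdk4, held 4 copies, the nearest 11 bases before the start on the plus strand of chromosome 10.
Cdk4: aagggtgaagatCACGTGtccagaacgtcc

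Myc was lower in ILC1 from leukaemic mice. The gene (ENSMUSG00000022346.15 in GENCODE M21, chromosome 15, 61985341 to 61990361, plus strand, positions as in the count table, mouse build mm10) measured 143, 133 and 140 CPM in AML 1, 2 and 3, against 188, 242 and 230 CPM in healthy 1, 2 and 3. All AML values were under all healthy values, and the AML libraries were nearly alike, with a highest to lowest ratio of 1.08 against 1.29 among healthy libraries. The means were 138 ± 5.20 CPM in AML and 220 ± 28.5 CPM in healthy libraries (SD, n = 3 each). The log2 difference was -0.67 ± 0.10 (SE), or 0.629 of the healthy level, and it ranged over -0.77 to -0.60 when libraries were left out one at a time. Healthy 1, the healthy library with a high sum of monocyte and macrophage markers, also had the lowest Myc level of its group. That sum was led by Lyz2, at 459 CPM. The markers C1qa, C1qb, C1qc and Clec4f, at 0.648, 2.41, 1.195 and 0.324 CPM, were instead lowest in healthy 1 among healthy libraries. Without that library the log2 fold change was -0.77 ± 0.08, and the macrophage marker sums of the remaining libraries did not overlap between the groups. The dendritic cell sums given above did not overlap either, nor did Cd3g. With all libraries kept, the macrophage markers Adgre1, C1qa, C1qb and C1qc did not overlap between the groups. The other T cell markers did overlap, as did Itgax, the most abundant of the dendritic cell markers. The part of macrophage, dendritic cell or T cell RNA in the Myc difference was not tested.

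**Figure D1:**
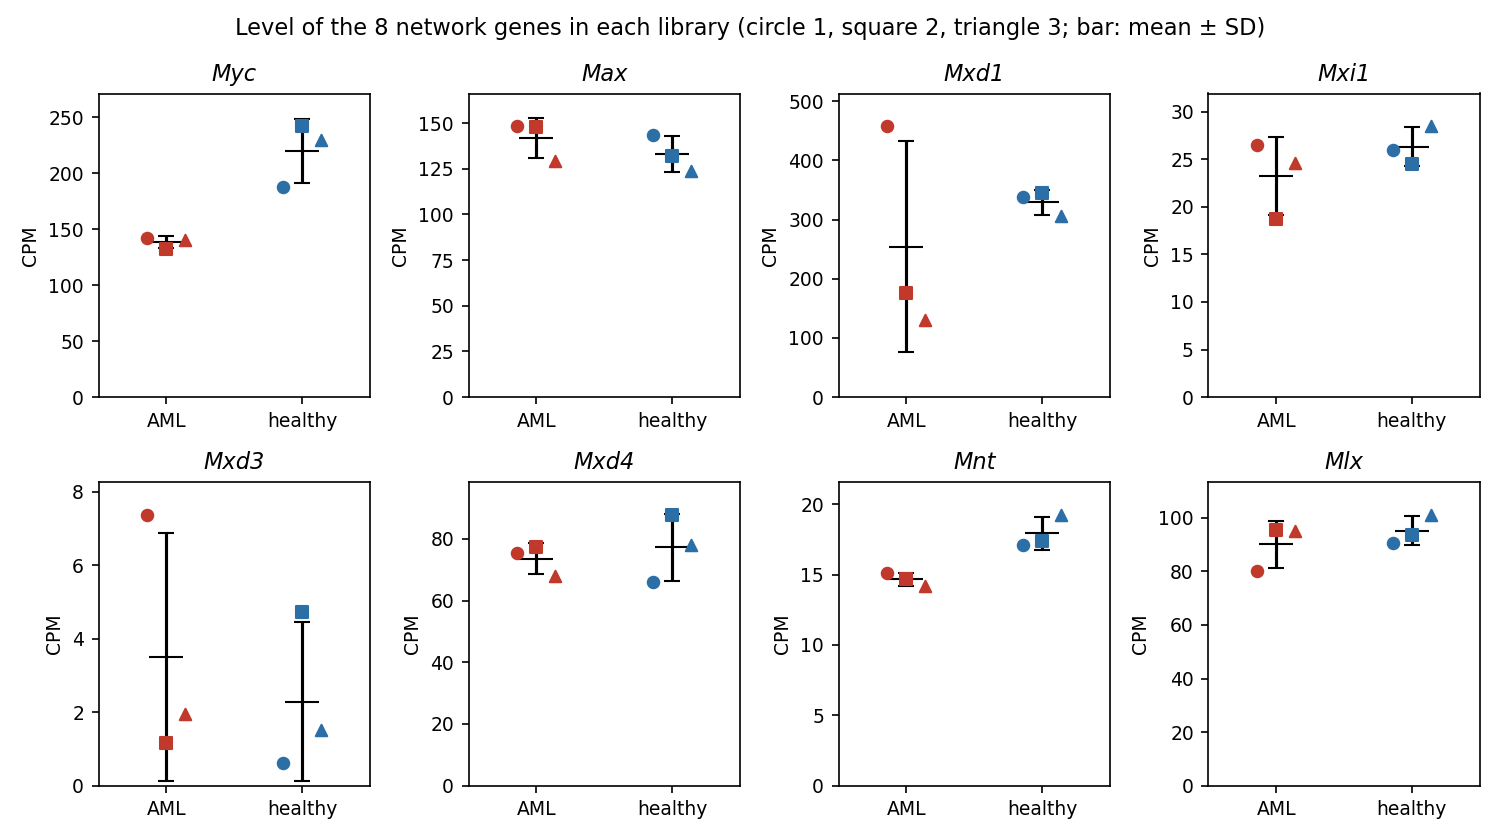
Level in CPM (TMM-scaled library sizes, linear axes from 0) of each network gene, with a point per library and a bar for mean ± SD, AML on the left and healthy on the right of each panel. Myc and Mnt are the genes whose AML points all lie below all healthy points, and Mxd1 and Mxd3 spread widely among the AML points.

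MAX is the partner that MYC, the MXD proteins and MNT need. Max (ENSMUSG00000059436.13, chromosome 12, 76937269 to 76962248, minus strand) measured 148, 148 and 130 CPM in AML 1, 2 and 3, against 144, 132 and 124 CPM in healthy 1, 2 and 3. The groups overlapped and the log2 fold change was 0.09 ± 0.09 (SE). Mlx, the second partner (ENSMUSG00000017801.15, chromosome 11, 101087290 to 101092207, plus strand), measured 80.0, 95.2 and 95.2 CPM in AML 1, 2 and 3, against 90.6, 93.6 and 101 CPM in healthy 1, 2 and 3. Here too the groups overlapped, with AML 1 the lowest library and a log2 fold change of -0.08 ± 0.09 (SE). Both differences were about the size of their standard error.

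Among the repressors, Mnt stood lower in AML by a small amount. Mnt encodes the broadly expressed repressor of the network (ENSMUSG00000000282.12, chromosome 11, 74830924 to 74845725, plus strand) and measured 15.1, 14.7 and 14.2 CPM in AML 1, 2 and 3, against 17.1, 17.4 and 19.3 CPM in healthy 1, 2 and 3. All AML values were under all healthy values, so this repressor and the activator Myc were low in the same 3 libraries. The log2 fold change was -0.29 ± 0.12 (SE), or 0.818 of the healthy level, with -0.33 to -0.25 when libraries were left out.

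Thus 2 of the 8 genes, Myc and Mnt, had all AML libraries below all healthy ones, and 0 of 8 had the reverse. Over all 12469 genes tested 7.34% had every AML library lower and 8.20% had every AML library higher, and no weight is put on the members' count, since the choice of genes used these levels. Fold changes were negative for 6 of 8 genes, beside 52.0% of all genes with a positive one. By the edgeR quasi-likelihood test with Benjamini-Hochberg adjustment 0.00% of all genes passed an adjusted p of 0.05. At an unadjusted level of 0.05 there were 1102 genes, the likelihood ratio test called 100 genes, DESeq2 143 and limma-voom 0. Whether members were among the genes called by any method is left out, as no test is drawn from the members.

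Mxd1 behaved differently from Myc, because the AML libraries did not resemble one another. Mxd1 encodes MAD1, a repressor known from differentiating blood cells (ENSMUSG00000001156.9, chromosome 6, 86647045 to 86669159, minus strand). It measured 458, 175 and 130 CPM in AML 1, 2 and 3, against 338, 345 and 305 CPM in healthy 1, 2 and 3. AML 1 was above all healthy libraries, while AML 2 and AML 3 were below all of them. The highest to lowest ratio was 3.54 among AML libraries and 1.13 among healthy libraries. The SD of log2 levels among AML libraries was 0.95, larger than that of 99.6% of the 8345 genes at a mean of 10 CPM or more, and among healthy libraries it was 0.09, larger than that of 39.6%.

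The group difference of Mxd1 moved with AML 1. With all libraries the log2 fold change was -0.37 ± 0.41 (SE), without AML 1 it was -1.11 ± 0.14, without AML 2 -0.17 ± 0.46 and without AML 3 -0.06 ± 0.35. Neutrophils are known to express Mxd1, and AML 1 also held the highest neutrophil marker sum, at 77.7 CPM. S100a8 measured 36.0 CPM there, Mpo 1.28 CPM and Elane 0.577 CPM, and Ly6g was at 0. Mxd1 stood at 345 CPM in healthy 2, where the neutrophil markers summed to 0.503 CPM. The part of neutrophil RNA in the level of AML 1 was not tested.

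The other MXD genes showed smaller group differences. Mxd4, a repressor of resting cells (ENSMUSG00000037235.13, chromosome 5, 34176580 to 34187710, minus strand), measured 75.5, 77.3 and 68.1 CPM in AML 1, 2 and 3, against 66.1, 87.9 and 77.9 CPM in healthy 1, 2 and 3. The groups overlapped fully, with a log2 fold change of -0.07 ± 0.12 (SE). Mxi1, which encodes the repressor MXI1 (ENSMUSG00000025025.14, chromosome 19, 53310506 to 53375810, plus strand), measured 26.5, 18.7 and 24.6 CPM in AML 1, 2 and 3, against 25.95, 24.5 and 28.5 CPM in healthy 1, 2 and 3. AML 2 was the lowest library and the groups overlapped. The log2 fold change of -0.18 ± 0.15 (SE) was -0.04 without AML 2.

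Mxd3 was the lowest of the set and the most variable. It encodes MAD3, the MXD protein known from mouse cells in S phase (ENSMUSG00000021485.14, chromosome 13, 55325168 to 55329730, minus strand). It had 345, 61 and 93 reads in AML 1, 2 and 3, against 31, 235 and 73 reads in healthy 1, 2 and 3, which is 7.38, 1.17 and 1.96 CPM against 0.628, 4.72 and 1.52 CPM. The libraries of both groups were interleaved. The log2 fold change was 0.61 ± 0.87 (SE), from -0.55 without AML 1 to 1.70 without healthy 2.

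Genes of cell division had their highest libraries in common with Mxd3. The 20 listed genes of G2 and M phase summed to 480, 98.7 and 138 CPM in AML 1, 2 and 3, against 46.8, 207 and 61.7 CPM in healthy 1, 2 and 3. AML 1 and healthy 2 were the highest libraries for both measures and healthy 1 the lowest for both. Every one of the 20 log2 differences was positive, 0 passed an adjusted p of 0.05 (edgeR), and the list median was 1.29, which was 0.07 without AML 1 and 2.47 without healthy 2. Mxd3 and Prelid1 share 105 bases at their ends on opposite strands, and these libraries carry no strand information, so reads there cannot be told apart. Prelid1 measured 107 to 115 CPM in both groups.

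**Figure D2:**
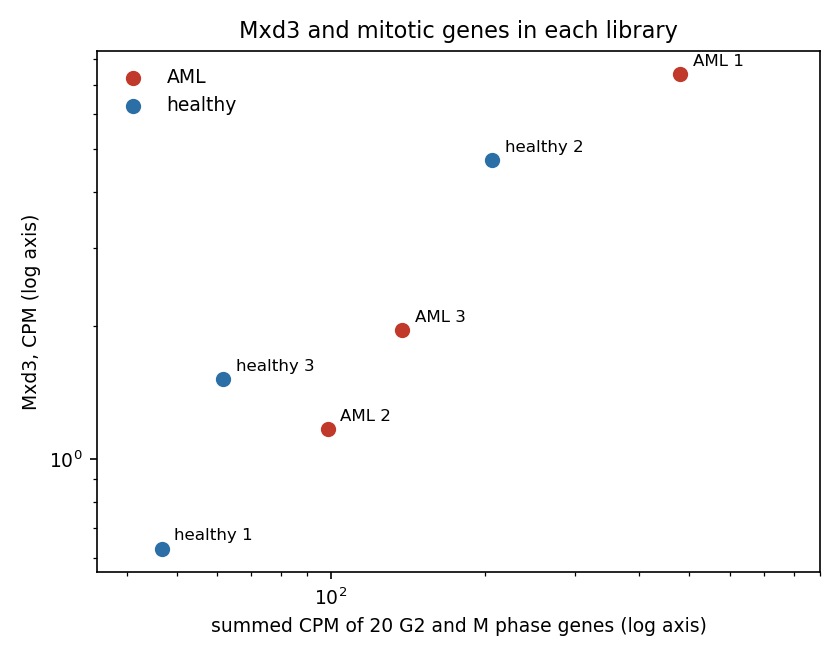
Mxd3 level in CPM against the summed CPM of 20 G2 and M phase genes, both on log axes, with a labelled point per library. AML 1, at 7.38 CPM of Mxd3 and 480 CPM of mitotic genes, and healthy 2, at 4.72 and 207 CPM, are the upper points.

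Per length, the network falls into an abundant and a scarce group in both conditions. Levels as CPM per kilobase, on the gene lengths of the deposited table, averaged 68.1 for Max, 62.8 for Mxd4, 55.8 for Myc, 54.6 for Mxd1 and 45.8 for Mlx in AML libraries. In healthy libraries the averages were 88.7 for Myc, 70.8 for Mxd1, 65.9 for Mxd4, 63.9 for Max and 48.4 for Mlx. The scarce genes Mxi1, Mnt and Mxd3 averaged 3.78, 3.20 and 2.71 in AML and 4.27, 3.92 and 1.77 in healthy libraries. Myc was thus at rank 3 in AML, with all its libraries below those of Mxd4, and first in healthy libraries, with all of them above those of Mxd1. In AML the neighbours Max and Mxd4, Myc and Mxd1, and Mxd1 and Mlx overlapped in their library ranges, and so did Mxi1 with Mnt and Mnt with Mxd3. In healthy libraries Mxd1 with Mxd4, Mxd4 with Max, and Mxi1 with Mnt overlapped. The level of Mxd4 depends on its listed length of 1.17 kb. The count table's gene, on the minus strand, has its 3′ end at 34176580, whereas the GENCODE M21 gene extends further downstream, to 34173883.

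**Figure D3:**
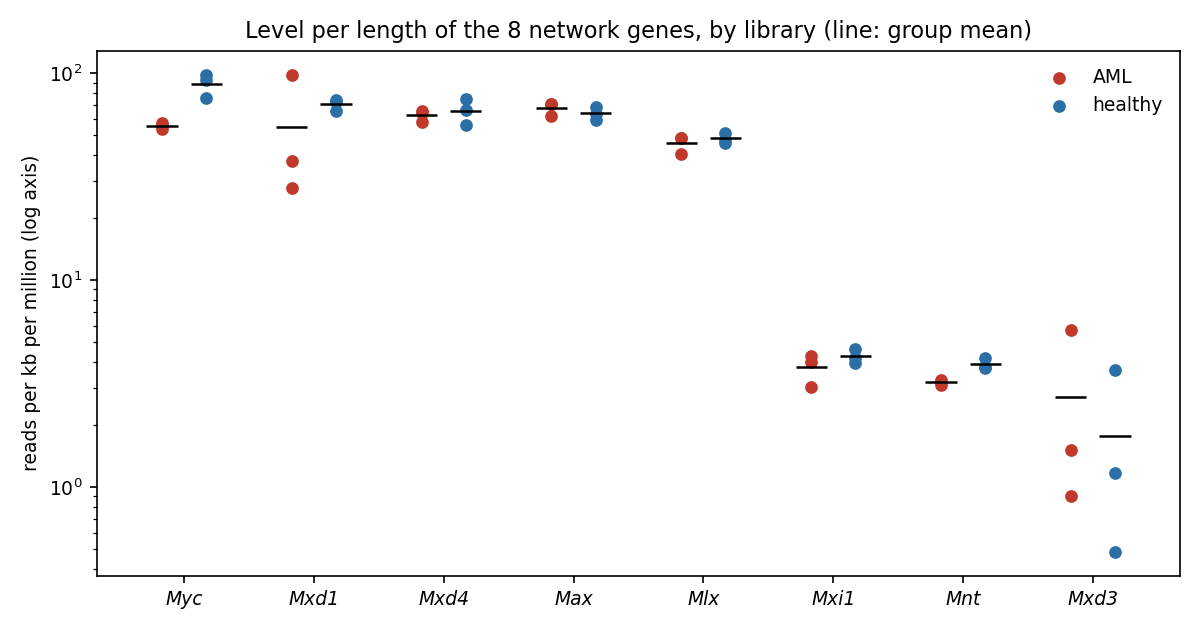
Level per length (CPM per kilobase, log axis) of the 8 genes, with a point per library and a line at the mean, AML left of healthy for each gene. Myc, Mxd1, Mxd4, Max and Mlx lie between 27.8 and 98.4, whereas Mxi1, Mnt and Mxd3 lie between 0.486 and 5.70.

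The transcripts of the repressors outnumbered those of Myc in every library. Myc over the sum of Mxd1, Mxi1, Mxd3, Mxd4 and Mnt, per length, was 0.326, 0.483 and 0.597 in AML 1, 2 and 3, against 0.552, 0.608 and 0.653 in healthy 1, 2 and 3. AML 3 lay above healthy 1, so the groups overlapped, and the log2 ratio averaged -1.14 ± 0.44 in AML and -0.73 ± 0.12 in healthy libraries (SD, n = 3 each). The difference of these means, -0.41, was -0.17 without AML 1, -0.60 without AML 3 and -0.25 on plain CPM. Mxd1 and Mxd4 held most of the repressor sum. Mxd1 made up 55.9%, 34.0% and 29.5% of it in AML 1, 2 and 3, against 52.8%, 46.2% and 46.2% in healthy 1, 2 and 3, and Mxd4 made up 36.6%, 59.5% and 61.4%, against 41.1%, 46.7% and 46.8%. Mxd1 was the larger of the pair in AML 1 and healthy 1 and Mxd4 in AML 2 and AML 3, while they were nearly equal in healthy 2 and healthy 3. Max over the sum of Myc and the 5 repressors was 0.305, 0.432 and 0.412 in AML 1, 2 and 3, against 0.323, 0.245 and 0.253 in healthy 1, 2 and 3. These are transcript ratios and say nothing of the proteins, of which MYC is known to be short-lived.

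The genes with the library pattern most like that of Myc included phosphatase genes of MAP kinase signalling. Among 8338 genes with a mean of at least 10 CPM, members left out, the smallest root mean square differences of centred log2 levels over the 6 libraries were 0.09 for Dusp6, 0.10 for Dusp2, 0.11 for Gem, 0.12 for Zmat4 and 0.13 for Ppargc1b. Dusp6 and Dusp2 encode phosphatases that act on ERK and other MAP kinases, and Gem encodes a small GTPase. Dusp6 measured 284, 314 and 329 CPM in AML 1, 2 and 3, against 387, 546 and 519 CPM in healthy 1, 2 and 3, and Gem measured 711, 566 and 566 CPM against 867, 957 and 1004 CPM. These genes were picked for their likeness to Myc, so the shared pattern follows from the choice. The likeness is not complete, since Ppargc1b measured 10.3 CPM in AML 3, against 10.2 CPM in healthy 1, so that its groups overlapped.

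The pattern nearest to Mxd1 was another. By the same measure, applied after the values of Mxd1 were seen, the closest genes were Coq10b, Nr4a3, Odc1, Serpinb9 and Insig1, at 0.12, 0.12, 0.13, 0.14 and 0.16. Odc1, which encodes the rate-limiting enzyme of polyamine synthesis and is a classic activated target of MYC, measured 113, 44.6 and 41.0 CPM in AML 1, 2 and 3, against 92.4, 98.7 and 75.9 CPM in healthy 1, 2 and 3. AML 1 was the highest library for Odc1 as for Mxd1, and AML 2 and AML 3 the lowest. Nr4a3, a nuclear receptor of the immediate early class, measured 54.0, 17.2 and 15.1 CPM in AML 1, 2 and 3, against 43.0, 36.9 and 31.9 CPM in healthy 1, 2 and 3.

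**Figure D4:**
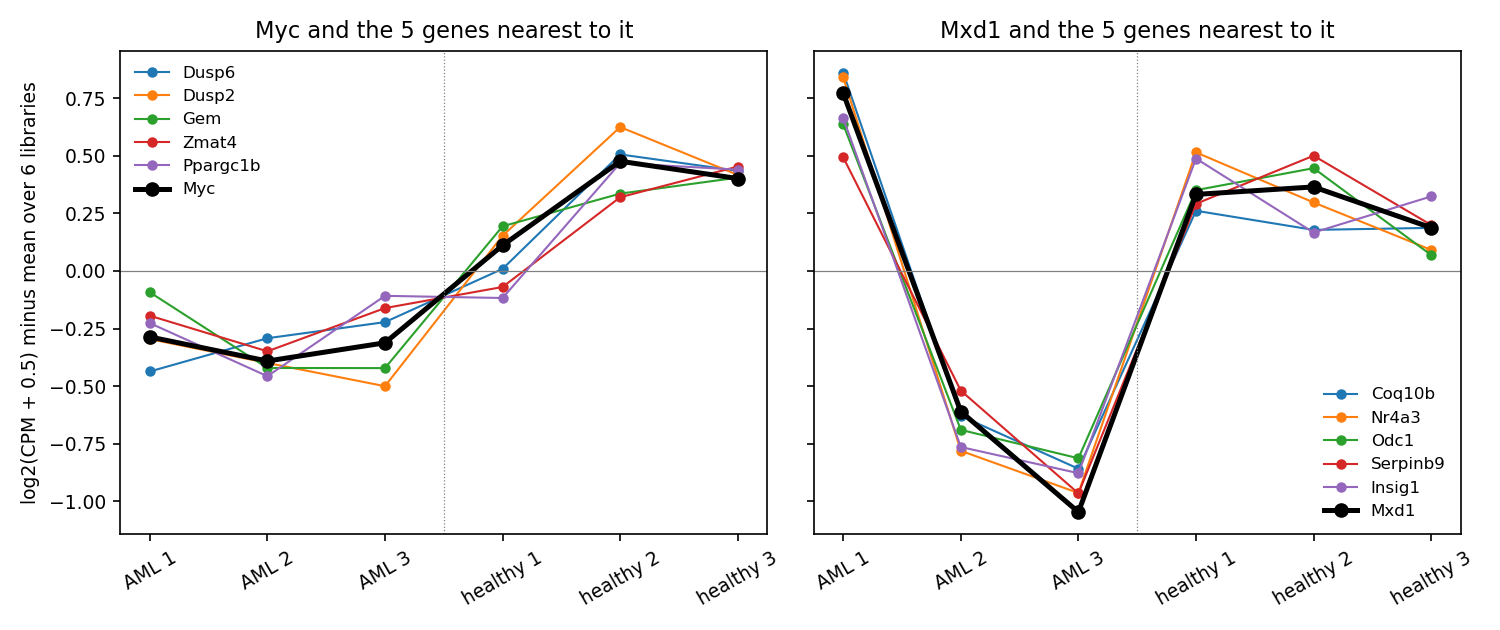
Centred log2(CPM + 0.5) of Myc (left) and Mxd1 (right), in black, with the 5 genes nearest to each, over the 3 AML and 3 healthy libraries. The Myc set lies under its own mean in all AML libraries, whereas the Mxd1 set is lowest in AML 2 and AML 3 and highest in AML 1, except Serpinb9, which was 500.2 CPM in AML 1 and 502.8 CPM in healthy 2.

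Genes that MYC is known to activate mostly had small negative differences, and 0 passed. Of 62 target genes tested in 5 lists, 48 had a negative and 14 a positive log2 difference. The median was -0.12 beside 0.01 over all genes. By edgeR 0 passed an adjusted p of 0.05, where the smallest was 0.497. In 5 of the 62, or 8.07%, every AML library was lower, and in 1, or 1.61%, every AML library was higher, beside 7.34% and 8.20% of all genes. The lists were written with earlier results of these data known, so their direction is no independent support.

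The nucleolar targets, which serve ribosome synthesis, had negative values for 20 of 21 genes with a median of -0.16, and 0 passed (edgeR). The median was -0.10 without healthy 1, without AML 2 or when scaled by total counts only. Ncl, which encodes nucleolin, measured 623, 518 and 542 CPM in AML 1, 2 and 3, against 677, 676 and 590 CPM in healthy 1, 2 and 3, a log2 fold change of -0.21 ± 0.10 (SE). Pa2g4, a growth regulator of the nucleolus, and Mybbp1a, a ribosomal RNA regulator, had values of -0.28 ± 0.10 and -0.25 ± 0.11, with all AML libraries lower. Npm1, which encodes nucleophosmin, had -0.25 ± 0.14 with overlapping groups.

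Of the 15 genes of nucleotide, polyamine and one-carbon metabolism 13 were negative, with a median of -0.16, and 0 passed (edgeR). Left-out libraries gave medians of -0.24 (without healthy 3) to -0.09 (without AML 3), and scaling by total counts only gave -0.10. Mthfd1, an enzyme of folate metabolism, and Umps, of pyrimidine synthesis, had log2 fold changes of -0.36 ± 0.15 and -0.31 ± 0.14 (SE), and Odc1 of -0.43 ± 0.37. Of the 9 genes of translation and mitochondria 8 were negative, with a median of -0.17, or -0.11 without healthy 1 or when scaled by total counts only, and -0.27 without healthy 3. By edgeR 0 passed, with -0.78 ± 0.30 for the mitochondrial chaperonin gene Hspe1 and -0.28 ± 0.11 for C1qbp.

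The 9 genes of glycolysis and transport had a median of -0.02, or 0.05 when scaled by total counts only, with 6 negative and 0 past the threshold. Slc3a2, the heavy chain of an amino acid transporter, measured 552, 323 and 265 CPM in AML 1, 2 and 3, against 603, 712 and 556 CPM in healthy 1, 2 and 3. All AML libraries lay lower, AML 1 only just, and the log2 fold change was -0.71 ± 0.25 (SE) with an adjusted p of 0.497. Its light chain partner Slc7a5 had -0.26 ± 0.25, and the glucose transporter gene Slc2a1 had -0.55 ± 0.27.

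The targets of the G1 to S transition ran the other way, as 7 of 8 were positive, with a median of 0.29 and 0 past the threshold. E2f2, an activator of S phase genes, measured 12.4, 3.60 and 3.60 CPM in AML 1, 2 and 3, against 3.44, 2.17 and 1.68 CPM in healthy 1, 2 and 3. AML 1 was far above the other libraries, and the list median was 0.10 without AML 1. Cdk4, whose promoter held the E-boxes shown above, had -0.06 ± 0.08, and the abundant cyclin gene Ccnd2 had 0.14 ± 0.09.

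Genes that MYC is known to repress mostly had negative differences as well. Of 8 tested 7 were negative, with a median of -0.41, and 0 passed an adjusted p of 0.05 by edgeR's quasi-likelihood test. The median was -0.74 without AML 1 and -0.27 without AML 2. Cdkn1c, which encodes the cell cycle inhibitor p57, measured 8.23, 5.38 and 5.47 CPM in AML 1, 2 and 3, against 10.5, 14.7 and 12.1 CPM in healthy 1, 2 and 3, a log2 fold change of -0.97 ± 0.24 (SE). DESeq2 called Cdkn1c, at an adjusted p of 0.0228, while edgeR gave 0.399. Gadd45a, a growth arrest gene, had -0.83 ± 0.28, and its AML libraries, like those of Cdkn1c, all lay below the healthy ones. Cdkn1a, which encodes p21, measured 135, 37.1 and 17.7 CPM in AML 1, 2 and 3, against 107, 93.0 and 83.9 CPM in healthy 1, 2 and 3, so that AML 1 was the highest library here too.

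**Figure D5:**
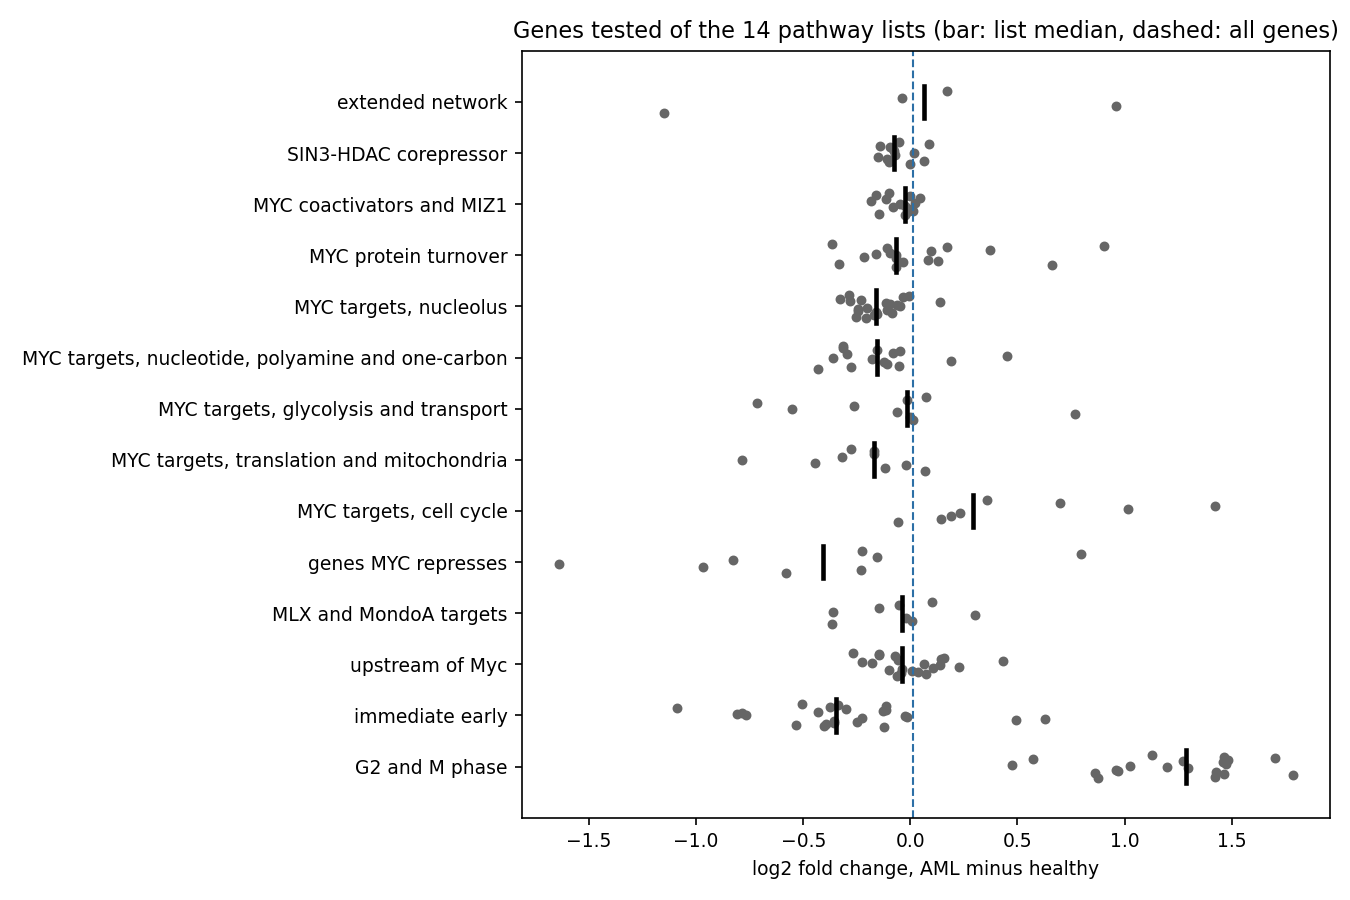
Log2 fold change, AML minus healthy, of every gene tested in the 14 pathway lists, with a point per gene, a bar at each list median and a dashed line at the median of all genes, 0.01. The nucleolar list lies at -0.16, the repressed genes at -0.41, the immediate early genes at -0.35 and the G2 and M phase genes at 1.29, and without AML 1 the last 3 were -0.74, -0.61 and 0.07.

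Leaving out AML 1 made some of these differences pass. Without it 2 of the target genes were called, Odc1 at -1.06 ± 0.13 with an adjusted p of 0.0144 and Slc3a2 at -1.09 ± 0.13 with 0.0145, and of the repressed genes Gadd45a at -1.25 ± 0.13 with 0.00899 and Cdkn1a at -1.78 ± 0.29 with 0.0411 (edgeR). Across the 14 lists 11 of 193 genes, or 5.70%, were called without AML 1, beside 1.15% of all genes under that setting. Without both AML 1 and healthy 1 it was 23 of 191, or 12.04%, beside 3.54% of all genes. Without healthy 1 alone it was 2 of 192, or 1.04%, beside 0.697%, and it was 0 with all libraries and without each of the other 4. The lists are no independent choice, so nothing is read from these shares.

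Wider partners and regulators of the network had 0 calls with all libraries. In the extended network, Mga, a MAX partner and repressor, measured 48.3, 47.8 and 52.0 CPM in AML 1, 2 and 3, against 39.95, 43.7 and 47.7 CPM in healthy 1, 2 and 3, a log2 fold change of 0.17 ± 0.09 (SE). Its AML libraries all lay above the healthy ones, though AML 2 and healthy 3 differed little. Mlxip, which encodes the MLX partner MondoA, had -0.04 ± 0.10. The MYC paralogs were low, with Mycn at 0.00 to 0.705 CPM in AML and 0.302 to 1.25 CPM in healthy libraries, and Mycl at 0.0214 to 1.14 and 0.00 to 0.644 CPM. Mlxipl did not pass the filter and stood at most at 0.0855 CPM in AML and 0.104 CPM in healthy libraries, near the level of 3 counts, 0.0574 to 0.0641 CPM.

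Of the genes of the corepressor, the coactivators and MYC turnover 0 passed with all libraries. Without both AML 1 and healthy 1, edgeR called 1 turnover gene, as lower in AML. The 13 tested genes of the SIN3 and histone deacetylase corepressor had a median of -0.08, with Sin3a at -0.00 ± 0.10 and Sin3b at -0.10 ± 0.07. The 15 coactivator genes and MIZ1 (Zbtb17) had a median of -0.03, or 0.04 when scaled by total counts only, with Smarcb1 at -0.18 ± 0.07 and Cdk9 at -0.12 ± 0.06. Of the 17 genes of MYC protein turnover 7 were positive and 10 negative, with a median of -0.07. Fbxw7, whose product marks MYC for destruction, had -0.07 ± 0.15, while Skp2, another ubiquitin ligase gene, measured 6.11, 5.32 and 5.003 CPM in AML 1, 2 and 3, against 2.63, 4.14 and 3.61 CPM in healthy 1, 2 and 3, with 0.66 ± 0.26.

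The MLX and MondoA targets and the genes upstream of Myc were also without calls with all libraries. Without both AML 1 and healthy 1, Txnip was called at -0.61 ± 0.10 with an adjusted p of 0.0116 (edgeR). Txnip, an inhibitor of glucose uptake and the best known MondoA target, measured 772, 570 and 566 CPM in AML 1, 2 and 3, against 726, 803 and 928 CPM in healthy 1, 2 and 3, a log2 fold change of -0.37 ± 0.14 (SE), and the 8 tested genes of its list had a median of -0.04, or 0.03 when scaled by total counts only. The 21 upstream genes had a median of -0.04, or 0.02 when scaled by total counts only, with 10 positive and 11 negative. Tcf7, which encodes the Wnt effector TCF1, had 0.43 ± 0.14 and Rela, an NF-kB subunit, -0.18 ± 0.09.

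Immediate early genes, the class to which Myc belongs, had negative values for 22 of 24 members, Myc left out, with a median of -0.35, or -0.61 without AML 1 and -0.20 without AML 3. By edgeR's quasi-likelihood test 0 passed, whereas DESeq2 called 4, Dusp2 at an adjusted p of 3.6e-08, Dusp1 at 0.00149, Btg2 at 0.00947 and Junb at 0.0496, and the edgeR likelihood ratio test called Dusp2 and Dusp1. Over the lists this was 5 of 192 genes by DESeq2, or 2.604%, beside 1.15% of all genes, and 2, or 1.04%, by the likelihood ratio test, beside 0.802%. Btg2, an antiproliferative gene, and Dusp1, a MAP kinase phosphatase gene, had -0.43 ± 0.10 and -0.77 ± 0.18 by edgeR, with all AML libraries lower, as for Dusp2, Junb and Ier2. Egr2 and Egr3, named like Ier2 after their values were seen, had 0.49 ± 0.15 and 0.63 ± 0.24, with all AML libraries higher. In 5 of the 24 every AML library was lower and in 2 every AML library was higher, beside the 7.34% and 8.20% of all genes given above.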

How the data were processed

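Poly(A) RNA of liver ILC1, from 2 ng of total RNA per library, was amplified with the SMART-Seq v4 kit and read as single reads of 51 cycles without strand information, per the labels' protocols. Gene counts were made by the authors and were used as deposited. Per the submitters' processing notes, the tools included edgeR 3.28.1, HTSeq 0.6.0, STAR 2.6.0 and bcl2fastq 2.18.0.12, and mm10 and hg19 are listed as builds with no role given. A second deposited table of 9769 genes held the authors' RPKM values per library, used as an alternative for levels per length, and, per the file headers, log2 fold changes and CPM, a likelihood ratio score and p-values, which were not used.

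Counts were filtered with filterByExpr (minimum count 10), scaled by TMM and tested with the edgeR 4.0.16 quasi-likelihood test in R 4.3.3, with all 6 libraries and no covariate, at a Benjamini-Hochberg adjusted p of 0.05. DESeq2 1.42.0, limma 3.58.1 (voom), the likelihood ratio test, other scalings and filters, a replicate block and left-out libraries were alternatives. Of these fits, the main edgeR quasi-likelihood fit was tested on simulated data with 200 changed genes. Library totals were 45135093 to 51284691 counts, and the floor of 3 counts covers counting error only. The Wilson interval covers only the sampling of genes. For 1 gene, 3 libraries against 3 allow no exact permutation p below 0.1.

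The members, gene lists and tests were chosen with earlier results of these data known. The text names all members, the 5 genes nearest to Myc, up to 4 genes of each list with the smallest p, and Mycn, Mycl, Mga, Mlxip, Sin3a, Sin3b, Fbxw7, Odc1, Ncl, Npm1, Cdk4, Ccnd2, Slc7a5, Cdkn1a and Txnip. Outside that rule, Egr2, Egr3, Ier2, Mlxipl, Prelid1 and the marker genes were named after their values were seen. The search for genes nearest to Mxd1 was added after its values were seen. Promoters came from RefSeq (GRCm38.p6), and gene identifiers from GENCODE M21.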

Additional observations from a re-analysis of the deposited data

How the results depend on the processing

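The count of genes past the threshold, 0 with all libraries, was 2 with total counts only, 2 with no filter on low counts, 2 with at least 1 CPM in all 6 libraries, 143 with DESeq2 and 100 with the edgeR likelihood ratio test. It ranged over 0 to 147 when libraries were left out, with 147 without AML 1 and 89 without healthy 1, and it was 444 without both. The cause was not tested. Mxd1 ranged over -1.11 (without AML 1) to -0.058 (without AML 3) on the log2 scale when libraries were left out and was -1.09 without AML 1 and healthy 1. Mxd3 ranged over -0.55 (without AML 1) to 1.70 (without healthy 2) and was -1.001 without both libraries named before, and it has no value under the 1 CPM filter. Myc stayed negative in 15 of 15 alternatives, over -0.79 to -0.60, and Mnt over -0.35 to -0.23. Mxd4 was 0.02 without healthy 2 and Mlx 0.0008 without AML 1, both positive. Same-numbered libraries had correlations of deviations of 0.133, -0.112 and 0.225. As the deviations are from means of 3 libraries, these values cannot settle whether the numbers pair the libraries. With the replicate block 0 genes were called and Myc was -0.66.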
